A study of Danio rerio with 30 samples.

Results

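The genes described are those of the MHC class II antigen presentation pathway: the invariant chain genes cd74a and cd74b, the transactivator gene ciita, the promoter factor gene rfx5 and the class II chain gene mhc2dab. A gene was represented by the probe set whose only gene symbol in the array annotation is that gene, and by the probe set with the highest mean where there were several. Of the 5 genes, 3 were found this way, cd74a, cd74b and ciita, each with 1 probe set, among 19260 genes with such a probe set. mhc2dab and rfx5 were not analysed here. The other genes of the pathway came from a list of 70, of which 51 were matched and 37 tested.

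Wild-type zebrafish gave RNA of the whole telencephalon, which was hybridised to Affymetrix Zebrafish Gene 1.0 ST arrays for 29 replicates of 9 groups. The fish were 3 to 5 months old by the labels and 4 to 6 months old, of the AB/EK strain, by the methods. Besides the intact brain (n = 4) there were 4 times after each of a nostril and a skull injury, at 1, 2, 3 and 7 days (days post injury, dpi), with n = 4 for skull injury at 3 dpi and n = 3 for each other injured group. The nostril injury was made with a glass capillary through the nostrils, the skull injury with a micro-knife pushed down through the skull, and both hemispheres were wounded. Injured and uninjured parts of the telencephalon were not separated. The labels do not say whether replicates are separate fish or pools, so that p-values measure the spread between these samples, which may be technical.

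MHC class II molecules are pairs of an alpha and a beta chain that present peptides of endocytosed proteins to CD4+ T cells. They are made by macrophages, dendritic cells, B cells and, in the injured brain, by microglia. The invariant chain, encoded by Cd74, binds new class II pairs, blocks their peptide groove and carries them to endosomes, where cathepsins and legumain degrade it. In mammals the transcription of the chains and of Cd74 is driven by the transactivator CIITA, which binds RFX, NF-Y and CREB proteins at the class II promoters and is itself induced by interferon gamma.

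All levels and differences are on the log2 scale of the deposited values, which the authors had normalized by RMA. Levels of different probe sets are not comparable with each other. Where values of 2 groups are said not to overlap, the share of all probe sets without overlap was not counted. Such statements only describe the values. Probe sets were compared with limma over all 9 groups, and "rose" and "fell" are used for an adjusted p under 0.05, by the Benjamini-Hochberg method across the 40670 probe sets whose linear mean was above 20 in at least 1 group. The replicates of skull injury at 3 dpi stood apart: their pairwise correlation was 0.937 to 0.962 against 0.967 to 0.982 within the other groups, and their mean variance was 0.173 against 0.0732 to 0.1. The calls of that group against intact are therefore also given without its replicate 2, which had the highest values of cd74a, cd74b and ciita in the group. The 8 telencephalon markers matched, among them emx3 and eomesa, were above a linear mean of 20 in every group.

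cd74a, 1 of the 2 zebrafish copies of the invariant chain gene, fell at 1 dpi after both injuries and rose at 3 dpi after skull injury. Its levels in the intact brain were 10.27, 10.49, 10.13 and 10.42. At 1 dpi they were 9.24, 9.94 and 9.66 after nostril injury, and 9.57, 9.58 and 9.65 after skull injury. All 6 values at 1 dpi lay below all 4 intact values. The difference from intact was -0.71 (standard error, SE, 0.15) after nostril injury, with an adjusted p of 0.019, and -0.73 (SE 0.15) after skull injury, with an adjusted p of 0.0185, a decrease of 1.64-fold and 1.66-fold. Of the 3 genes measured, 1 fell at 1 dpi in each comparison, while 0.0713% of all probe sets tested fell after nostril and 0.0713% after skull injury. The call after nostril injury was lost without intact replicate 2 (adjusted p 0.083), nostril replicate 1 (0.167) or nostril replicate 3 (0.0546), and that after skull injury without intact replicate 2 (0.0797), skull replicate 1 (0.117) or skull replicate 2 (0.0952). Over all alternatives the difference stayed between -0.88 and -0.53 after nostril injury and between -0.80 and -0.68 after skull injury. With only the compared groups in the fit the calls were lost (adjusted p 0.177 after nostril and 0.0521 after skull injury), as were all other calls of cd74a and cd74b. In whole tissue, fewer cells that make an RNA and less of that RNA per cell cannot be told apart.

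At 2 dpi cd74a was close to the range of the intact brain after nostril injury, at 10.40, 10.13 and 10.43, and after skull injury it was 10.33, 10.43 and 10.78. At 3 dpi the nostril values were 10.72, 10.80 and 10.75, above all intact values, with a difference of 0.43 (SE 0.15) that did not pass the test (adjusted p = 0.483, where 0.0787% of all probe sets rose). The skull values at 3 dpi were 11.09, 11.41, 10.93 and 10.91 and were the highest of the series. They exceeded the intact brain by 0.76 (SE 0.14, adjusted p = 0.00264), or 1.69-fold. Without replicate 2 of that group the difference was 0.65 (SE 0.14, adjusted p = 0.0052). At 7 dpi the levels were 10.34, 10.28 and 10.62 after nostril injury and 10.74, 10.63 and 10.41 after skull injury, and neither group passed the test against intact (adjusted p = 0.84 and 0.429).

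**Figure D1:**
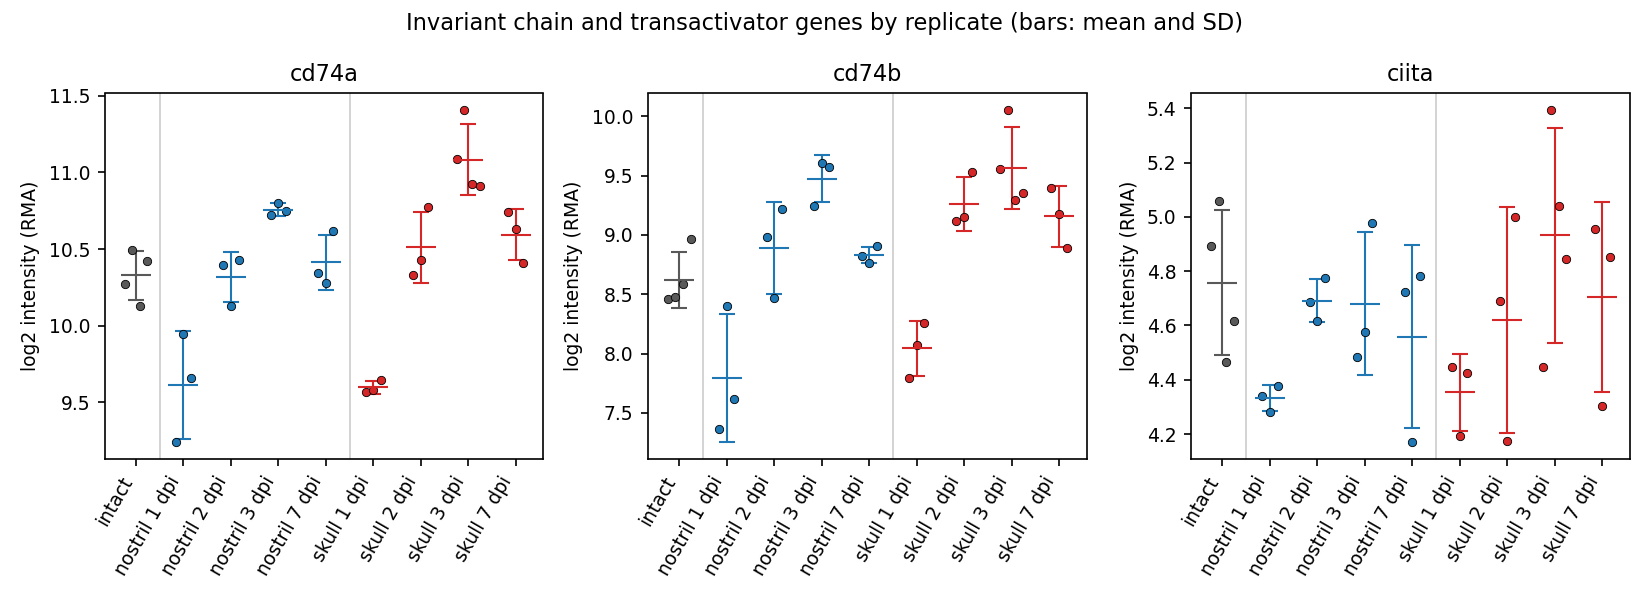
Log2 intensity of cd74a, cd74b and ciita in each of the 29 replicates (points) of the 9 groups, with the group mean and standard deviation (bars); grey is intact, blue nostril and red skull injury, and each panel has its own axis. All 1 dpi values of cd74a and cd74b lie below all intact values, and the cd74a values of skull injury at 3 dpi, 10.91 to 11.41, lie above every other group.

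cd74b, the other copy of the invariant chain gene, followed the same course with wider spread between replicates. Among the comparisons with intact, its only call was a rise at 3 dpi after skull injury. Its intact levels were 8.46, 8.48, 8.59 and 8.97. At 1 dpi they were 7.37, 8.40 and 7.61 after nostril and 7.80, 8.08 and 8.26 after skull injury, again with no overlap with intact. The differences at 1 dpi were -0.83 (SE 0.22) and -0.58 (SE 0.22), and neither passed the test (adjusted p = 0.0859 and 0.33). Replicate 2 of nostril injury at 1 dpi lay well above the other replicates of its group, and without it the nostril difference was -1.13, with an adjusted p of 0.016.

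At 2 dpi cd74b measured 8.99, 8.47 and 9.22 after nostril injury and 9.12, 9.15 and 9.53 after skull injury. At 3 dpi the values were 9.25, 9.61 and 9.57 after nostril and 9.56, 10.05, 9.30 and 9.35 after skull injury. Both 3 dpi groups and the skull group at 2 dpi lay above all intact values. The skull group at 3 dpi exceeded intact by 0.94 (SE 0.21, adjusted p = 0.00751), or 1.92-fold, and by 0.78 (adjusted p = 0.0162) without its replicate 2. The nostril group at 3 dpi exceeded it by 0.85 (SE 0.22) and did not pass (adjusted p = 0.202), although the size of the difference was close to that after skull injury. Its unadjusted p by limma was 0.000815. The adjustment depends on the other probe sets, of which 35 were called in that comparison and 3224 at 3 dpi after skull injury. At 7 dpi the values were 8.82, 8.77 and 8.91 after nostril and 9.40, 9.18 and 8.89 after skull injury, with adjusted p = 0.702 and 0.251. Thus 2 of the 3 genes rose at 3 dpi after skull injury, a comparison in which 3.1% of all probe sets rose and 4.83% fell. No gene of the 3 was called at 2 dpi after nostril (0.529% of probe sets called) or skull injury (0.302%), at 3 dpi after nostril injury (0.0861%), or at 7 dpi after nostril (1.75%) or skull injury (0.708%).

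ciita, whose product activates the class II promoters, was near the lower end of the measured range and was not called in any of the 20 comparisons. Its intact levels were 4.89, 5.06, 4.46 and 4.62. At 1 dpi it measured 4.34, 4.28 and 4.38 after nostril and 4.45, 4.19 and 4.43 after skull injury. Every 1 dpi value lay below every intact value, by a narrow margin for skull injury. The differences were -0.42 (95% interval -0.87 to 0.02) and -0.40 (-0.85 to 0.04), with adjusted p = 0.514 and 0.519. At 3 dpi after skull injury it measured 4.45, 5.39, 5.04 and 4.84, a range that covers the whole intact range. The difference there was 0.17 (-0.24 to 0.58). Over the 9 groups the mean level of ciita lay between 4.33 (nostril injury at 1 dpi) and 4.93 (skull injury at 3 dpi), and each group overlapped with its neighbour in the order of means.

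The 8 comparisons with intact share the 4 intact replicates, which enter the differences between times only through the variance fitted over all groups. Between 1 and 2 dpi, cd74a rose by 0.70 (SE 0.16, adjusted p = 0.048) after nostril and by 0.91 (SE 0.16, adjusted p = 0.0476) after skull injury. cd74b rose by 1.1 (SE 0.24, adjusted p = 0.034) after nostril injury, and its difference after skull injury was 1.22 (SE 0.24, adjusted p = 0.138). For both genes and both injuries, all 2 dpi values lay above all 1 dpi values, a separation whose share among all probe sets was not counted. Thus 2 of 3 genes rose after nostril injury, where 0.207% of all probe sets rose. After skull injury 1 of 3 rose, and cd74a was the only 1 of the 40670 probe sets (0.00246%) called higher. These steps are close to the threshold: the cd74a call was lost in 23 of 29 fits that each left out 1 replicate after nostril injury (adjusted p 0.0246 to 0.219) and in 25 of 29 after skull injury (0.0151 to 0.441), among them the fits without any 1 of the 4 intact replicates. The cd74b step after nostril injury was lost without nostril 1 dpi replicate 1 (0.163) or 3 (0.138) or nostril 2 dpi replicate 1 (0.109) or 3 (0.16), and its step after skull injury passed without nostril 1 dpi replicate 2 (0.0263).

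From 2 to 3 dpi after skull injury cd74a rose by a further 0.57 (SE 0.15, adjusted p = 0.0349), where 1.17% of all probe sets rose, and the difference of cd74b was 0.30 (SE 0.22, adjusted p = 0.455). After nostril injury the same step was 0.44 for cd74a and 0.58 for cd74b, without overlap between the times, and neither passed (adjusted p = 0.809 and 0.839, in a comparison with 0 calls among all probe sets). From 3 to 7 dpi cd74a fell by 0.49 after skull injury (SE 0.15, adjusted p = 0.0391), where 3.19% of all probe sets fell. After nostril injury the difference was -0.35 (adjusted p = 0.364, 0.75% of probe sets called). The skull call from 2 to 3 dpi was lost without skull 2 dpi replicate 1 (adjusted p 0.152) or 2 (0.139) or skull 3 dpi replicate 1 (0.0714). That from 3 to 7 dpi was lost without any of 5 replicates, among them skull 3 dpi replicate 2 (difference -0.38, adjusted p 0.0867).

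The widest span without intact samples was that from 1 to 7 dpi. cd74a rose by 0.80 (SE 0.16, adjusted p = 0.00486) after nostril and by 1.00 (SE 0.16, adjusted p = 0.00371) after skull injury, and both calls held in all 29 fits that left out 1 replicate. cd74b rose by 1.04 (SE 0.24, adjusted p = 0.011) after nostril and by 1.11 (SE 0.24, adjusted p = 0.0264) after skull injury. These calls of cd74b were lost without nostril 1 dpi replicate 1 (adjusted p 0.0653) or 3 (0.0617), and without skull 1 dpi replicate 1 (0.16) or 2 (0.114) or skull 7 dpi replicate 1 (0.137) or 2 (0.0941). The count was 2 of 3 genes after each injury, where 2.46% (nostril) and 0.216% (skull) of all probe sets rose.

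The study's methods call a gene by an unadjusted p under 0.05 and a fold above 1.6. By these criteria cd74b was also called lower at 1 dpi and higher at 3 dpi after nostril injury, where 0.838% of all probe sets were called lower and 0.956% higher. For the step from 1 to 2 dpi after skull injury, both cd74a and cd74b were called higher (0.317% of probe sets). The steps of cd74a from 2 to 3 dpi (1.43% called higher) and from 3 to 7 dpi (2.38% called lower) after skull injury did not reach the fold. ciita met the criteria in no comparison. The study, which assigned probe sets to mouse genes by homology, lists the mouse symbol CIITA among genes regulated at 3 dpi after skull injury and at no time after nostril injury. Which probe set stood for it there is not known.

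No gene of the 3 was called between the injuries at the same time, where 0.0344% of probe sets were called at 1 dpi, 0% at 2 dpi, 3.59% at 3 dpi and 0% at 7 dpi. The skull minus nostril difference of cd74a was -0.02 (95% interval -0.35 to 0.32) at 1 dpi and 0.19 (-0.14 to 0.53) at 2 dpi. At 3 dpi all skull values of cd74a were above all nostril values, with a difference of 0.33 (0.01 to 0.64, adjusted p = 0.219), and of 0.22 (adjusted p = 0.386) without skull replicate 2. For cd74b the difference at 3 dpi was 0.09 (-0.37 to 0.55), with overlapping values, and at 1 dpi it was 0.25 (-0.24 to 0.74). By adjusted p the rise at 3 dpi was thus called after skull injury alone, while neither gene passed when skull was tested against nostril injury. By the criteria of the study's methods cd74b was also called at 3 dpi after nostril injury. The study lists the mouse symbol CD74 among genes regulated at 3 dpi after both injuries, with the class II chain symbols H2-AB1 and H2-EB1.

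cd74a and cd74b moved together over the series. Their Pearson correlation over the 29 replicates was 0.94 (Spearman 0.94), and that of their deviations from the group means was 0.82, so that replicates high in one copy within a group were also high in the other. The copies may share sequence, and whether probes of one also bind RNA of the other was not tested. Among 14371 other genes with a tested probe set, the gene most like cd74a after cd74b was zgc:103700 (0.78; deviations 0.65), followed by rbm4.1 (0.75; deviations -0.09), elovl8b (0.73; 0.62) and si:ch211-214p13.9 (0.73; 0.30). For cd74b it was zgc:103700 (0.88; deviations 0.81) after cd74a, followed by mhc2daa (0.82; 0.72), si:ch211-214p13.9 (0.80; 0.36) and si:ch211-226m16.2 (0.78; 0.56). Thus 2 class II chain genes were among the 5 genes most like cd74b. The correlation of ciita with cd74a was 0.62 (deviations 0.39) and with cd74b 0.52 (deviations 0.21), and these points share arrays, groups and normalization.

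**Figure D2:**
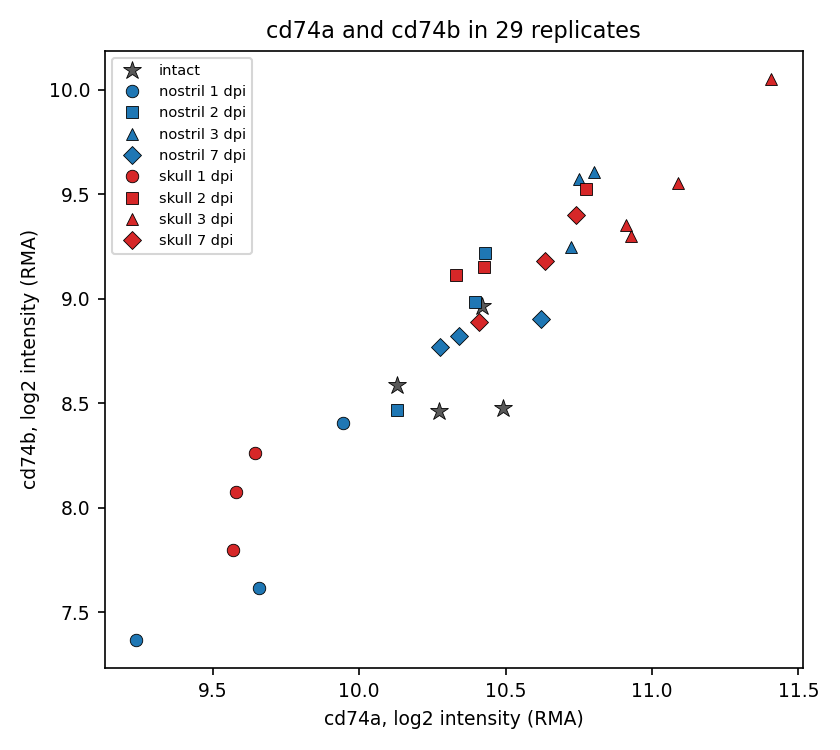
Log2 intensity of cd74b (vertical) against that of cd74a (horizontal) in the 29 replicates; colour gives the injury and the marker shape the time. The 1 dpi samples of both injuries lie at the lower left and the 3 dpi samples of skull injury at the upper right (Pearson r 0.94).

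The class II chains themselves were matched for 12 genes, of which 9 stayed below a linear mean of 20 in every group, with mean levels between 2.66 and 3.65, and were not tested. The 3 tested were mhc2daa (an alpha chain by its name), mhc2d4b (a beta chain by its name) and zgc:103700, which the RefSeq gene table lists as an older name of the class II gene mhc2dhb. Chain genes of this family are alike in sequence, and their probe sets can share signal. All 3 tested chains rose at 3 dpi after skull injury, where 3.1% of all probe sets rose. None was called by adjusted p in the other 7 comparisons with intact. By the criteria of the study's methods, all 3 were also higher at 2 dpi after both injuries. zgc:103700, mhc2daa and mhc2d4b differed by 0.85, 0.76 and 1.63 after nostril injury (1.37% of probe sets called higher). After skull injury the differences were 1.06, 0.86 and 1.42 (1.09%). zgc:103700 was so called at 3 dpi after nostril injury (0.956%). mhc2d4b was so called at 7 dpi after both injuries and at 1 dpi after skull injury.

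zgc:103700 measured 8.66, 8.81, 8.75 and 9.0 in the intact brain. At 1 dpi after nostril injury it was 7.47, 8.82 and 8.15, and at 2 dpi 10.03, 9.26 and 9.69. The groups at 1 and 2 dpi did not overlap, and the step of 1.51 (SE 0.29) passed the test (adjusted p = 0.0184), and no longer passed without nostril 1 dpi replicate 1 (0.106) or 3 (0.0572) or nostril 2 dpi replicate 1 (0.085) or 3 (0.0811). At 3 dpi after nostril injury it was 8.92, 9.76 and 9.89, a difference from intact of 0.72 that was not called. After skull injury it was 8.40, 9.03 and 9.13 at 1 dpi, 10.03, 9.73 and 9.84 at 2 dpi, and 10.09, 10.66, 9.64 and 9.78 at 3 dpi. At 1 dpi after skull injury it did not share the low values of cd74a, with a difference from intact of 0.05 (SE 0.28). At 3 dpi it rose by 1.24 (SE 0.26, adjusted p = 0.0051), or 2.36-fold, and by 1.03 (adjusted p = 0.0111) without replicate 2. Its call at 3 dpi held in all 29 fits that left out 1 replicate.

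mhc2daa measured 8.79, 9.15, 8.87 and 9.19 in the intact brain. After nostril injury it was 7.87, 9.15 and 8.49 at 1 dpi and 9.86, 9.61 and 9.81 at 2 dpi, a step of 1.25 (SE 0.27) that passed the test (adjusted p = 0.0353) but not without nostril 1 dpi replicate 1 (0.174) or 3 (0.106) or any replicate of nostril injury at 2 dpi (0.0882 to 0.119). At 3 dpi after nostril injury it was 8.89, 9.78 and 9.92, a difference from intact of 0.53 that was not called. After skull injury it was 8.65, 9.14 and 9.37 at 1 dpi and 9.88, 9.87 and 9.83 at 2 dpi, and at 3 dpi 9.61, 10.15, 10.05 and 9.45. The 2 dpi and 3 dpi skull values all lay above the intact values. The rise at 3 dpi was 0.82 (SE 0.24, adjusted p = 0.0349), and without replicate 2 the difference was 0.71 and no longer passed (adjusted p = 0.0645). That call was also lost without each of the 4 intact replicates (adjusted p 0.0539 to 0.0824) or skull replicate 3 (0.0886). The difference at 2 dpi was 0.86 (SE 0.25), with an adjusted p of 0.239.

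mhc2d4b differed in its course. Its intact values were 5.49, 5.56, 6.32 and 6.36, and at 1 dpi it measured 6.73, 6.32 and 6.48 after nostril and 7.83, 7.24 and 7.18 after skull injury. At 1 dpi after skull injury all its values were above all intact values, with a difference of 1.48 (SE 0.42, adjusted p = 0.127), at the time when cd74a fell. When replicate 2 of nostril injury at 2 dpi was left out of the fit, the same difference passed (adjusted p 0.0462). At 3 dpi after skull injury it measured 7.08, 8.20, 6.82 and 7.70, a rise of 1.52 (SE 0.39, adjusted p = 0.0195), and of 1.27 (adjusted p = 0.04) without replicate 2. The call was lost without intact replicate 2 (adjusted p 0.057). After nostril injury its largest difference was at 2 dpi, where 8.22, 6.32 and 8.16 gave 1.63 (SE 0.42, adjusted p = 0.0808). Without the low replicate 2 of that group it was 2.26, with an adjusted p of 0.00693. At 7 dpi mhc2d4b was still above every intact value, at 7.11, 6.77 and 6.79 after nostril and 8.29, 6.82 and 6.75 after skull injury. The differences were 0.96 (SE 0.42, adjusted p = 0.248) and 1.35 (SE 0.42, adjusted p = 0.12).

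**Figure D3:**
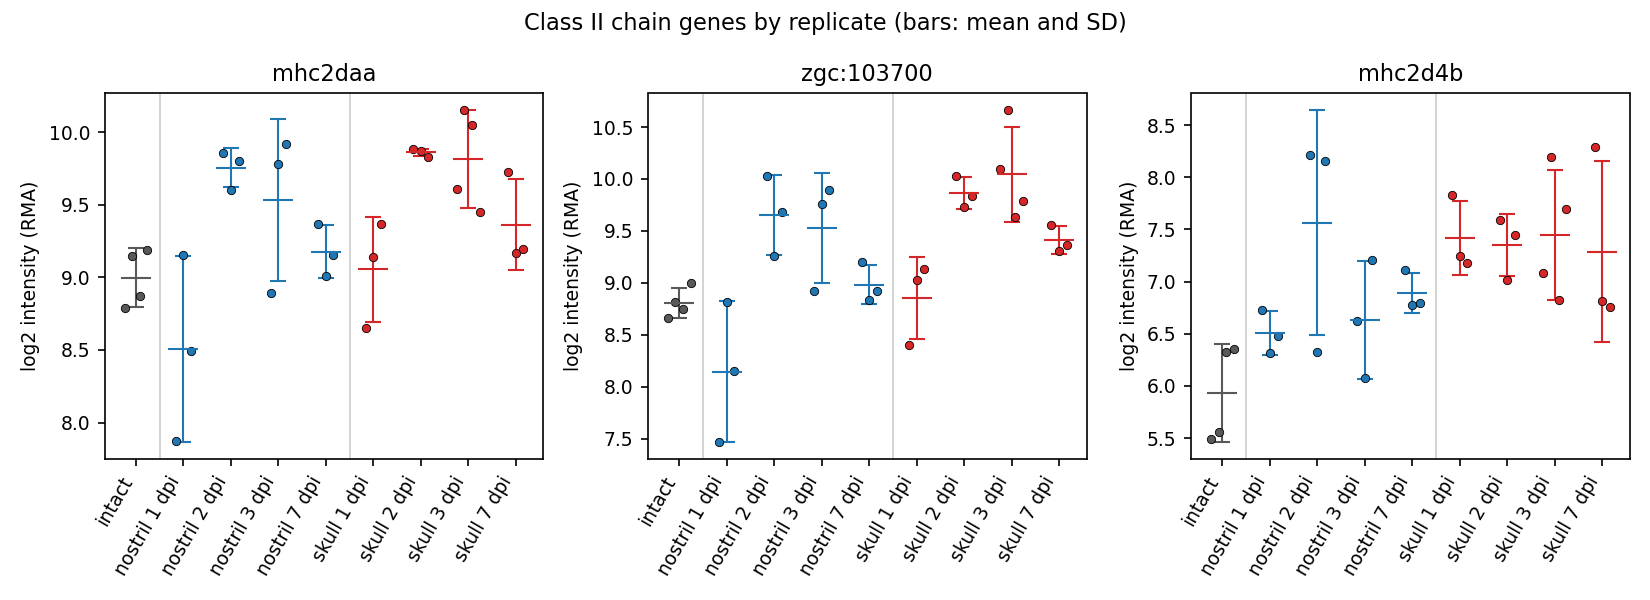
Log2 intensity of the class II chain genes mhc2daa, zgc:103700 and mhc2d4b in each of the 29 replicates (points), with the group mean and standard deviation (bars); grey is intact, blue nostril and red skull injury, and each panel has its own axis. All 3 genes are above every intact value at 3 dpi after skull injury, and at 1 dpi after skull injury mhc2d4b is above intact while the other genes overlap with it.

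Microglia and macrophages, cells known to make class II molecules in the brain, were followed through 18 marker genes, of which 17 were tested. At 1 dpi, when cd74a fell, no marker fell, while 4 of 17 rose in the nostril group (0.765% of all probe sets) and 10 of 17 in the skull group (0.541%). The 4 were havcr1, coro1a, lgals9l1 and laptm5, while mpeg1.1 and csf1ra were called at 1 dpi only after skull injury. In the intact brain 2 of the 18 markers were below a linear mean of 20, against 1 at 1 dpi and 1 at 3 dpi after skull injury. The filter favours a rise in these 2 skull groups for any marker that passed it only through them. The mean level over the 18 markers was 5.96 to 6.34 in the intact replicates, 6.63 to 7.08 at 1 dpi after nostril and 7.04 to 7.40 at 1 dpi after skull injury, with no overlap with intact. laptm5, which encodes a lysosomal membrane protein of blood-derived cells, measured 6.72, 7.16, 7.08 and 7.31 in the intact brain. At 1 dpi it was 7.99, 8.45 and 8.23 after nostril and 8.86, 8.83 and 8.46 after skull injury. In the same samples laptm5 thus rose by 1.16 (SE 0.22, adjusted p = 0.00804) and by 1.65 (SE 0.22, adjusted p = 0.000304), where cd74a fell by 0.71 and 0.73. The other probe set of laptm5, examined after its values were seen, rose by 1.32 and 1.70. Replicate means of 9 neutrophil markers were 4.77 to 5.08 at 1 dpi after nostril injury, above all intact means (up to 4.64). After skull injury they were 4.41 to 4.82 and overlapped with intact. Of 7 tested, mmp9 rose after nostril and csf3r after skull injury at 1 dpi. The paper reports neutrophils in the parenchyma early after both injuries. Which cells the rise of laptm5 came from was not tested.

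At 2 dpi, when cd74a was not called against intact, 11 of 17 microglia and macrophage markers rose after nostril injury (0.457% of all probe sets). After skull injury 8 of 17 rose at 2 dpi (0.283%). At 3 dpi after skull injury, where cd74a, cd74b and the 3 tested chains rose, 13 of 17 markers rose (3.1% of all probe sets). laptm5 rose by 1.91 (SE 0.20, adjusted p = 1.72e-05) and mpeg1.1, the macrophage gene of a pore-forming protein, by 1.63 (SE 0.30, adjusted p = 0.00248). Without replicate 2, a count taken after seeing the data, 12 of 17 markers rose, laptm5 by 1.79 (adjusted p = 6.54e-05) and mpeg1.1 by 1.3 (adjusted p = 0.00401). The share of all probe sets that rose in that fit was not counted. Replicate 2, which had the highest cd74a, also had the highest marker mean (7.63 against 6.95 to 7.25). From 2 to 3 dpi after skull injury, when cd74a rose, no marker was called (4.65% of all probe sets called). At 7 dpi no marker was called against intact after either injury, and by adjusted p the class II genes were not called either. Over the 29 replicates the correlation of the 18 markers with cd74a ran from -0.21 for the transporter gene slc7a7 to 0.61 for csf1rb, a copy of the macrophage growth factor receptor gene, with 0.10 for mpeg1.1 and 0.14 for laptm5. Between deviations from the group means it ran from -0.04 for the microglial receptor gene p2ry12 to 0.68 for the chemokine gene ccl34b.1, with 0.64 for mpeg1.1, 0.55 for laptm5 and 0.04 for the complement gene c1qb. The part of microglia and macrophage number in the class II levels was not tested.

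Markers of other cells that make or recognise class II molecules were mostly below the limit for testing: 1 of 6 B cell, 3 of 9 T and NK cell and 2 of 7 dendritic cell markers were tested. Their mean levels by replicate ranged from 3.92 to 4.01 (B cells), 3.83 to 4.08 (T and NK cells) and 4.80 to 4.85 (dendritic cells) in the intact brain. In skull injury at 3 dpi they ranged from 4.0 to 4.41, 3.96 to 4.22 and 4.90 to 4.99. The B cell genes cd79a and cd79b, of the antigen receptor, measured 3.90 and 3.49 at 3 dpi after skull injury and 4.03 and 3.60 in the intact brain, under the limit in both. The tested B cell list gene blnk, an adaptor of antigen receptor signalling, rose there by 0.93 (SE 0.29, adjusted p = 0.0489). Without replicate 2 the difference was 0.60 and did not pass (adjusted p = 0.127), while the other probe set of blnk, examined after seeing the data, gave 0.85 (adjusted p = 0.00498) with that replicate and 0.70 (adjusted p = 0.0101) without it. It was the only gene of these 3 lists called in any comparison.

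**Figure D4:**
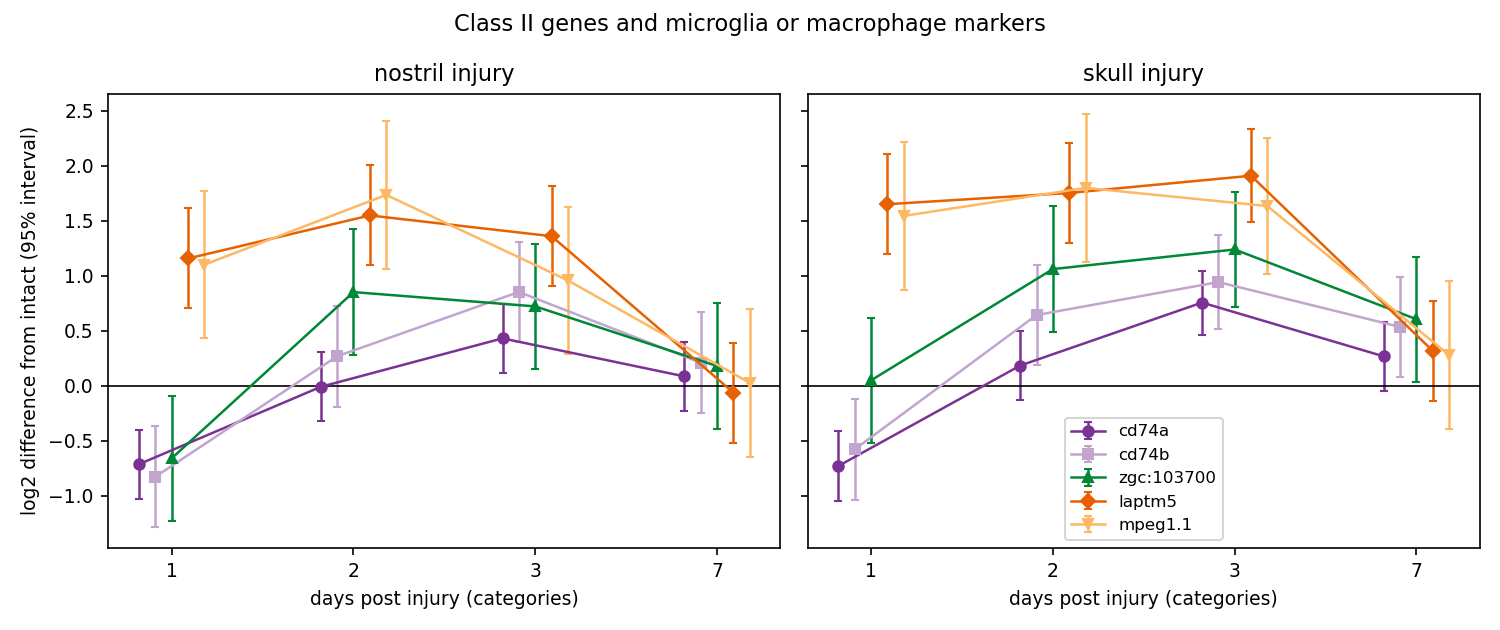
Log2 difference from intact, with its 95% interval, of cd74a, cd74b and the class II chain gene zgc:103700 and of the microglia and macrophage markers laptm5 and mpeg1.1, at 1, 2, 3 and 7 dpi (categories, not to scale in time) after nostril (left) and skull injury (right). At 1 dpi cd74a lies at -0.71 and -0.73 while laptm5 lies at 1.16 and 1.65, and at 7 dpi all 5 genes are nearer to intact than at 3 dpi.

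With all replicates, the proteases that act on the invariant chain and on antigen in endosomes rose in every comparison with intact in which they were called. Without skull 3 dpi replicate 2, the protease gene sppl2 fell at 3 dpi after skull injury. Of 8 tested, 4 rose at 1 dpi with nostril injury (0.765% of all probe sets) and 3 with skull injury (0.541%). ctss2.1, a copy of the gene of cathepsin S, which in mammals makes late cuts in the invariant chain, measured 4.54, 4.08, 4.04 and 4.62 in the intact brain. At 1 dpi it was 6.22, 6.22 and 6.47 after nostril and 7.05, 6.30 and 5.69 after skull injury, above all intact values. It rose by 1.99 (SE 0.27, adjusted p = 0.000199) and by 2.02 (SE 0.27, adjusted p = 0.000327), or 3.96-fold and 4.07-fold. It also rose at 2 dpi, by 1.76 and 1.35. At 3 dpi after skull injury the rise was 0.97 (SE 0.25, adjusted p = 0.0217), or 0.86 (adjusted p = 0.0392) without replicate 2, and from 1 to 7 dpi ctss2.1 fell by 1.76 after nostril and by 1.79 after skull injury, while cd74a rose over the same span. lgmn, the gene of legumain, rose at 1 dpi by 0.82 (adjusted p = 0.0142) and 1.07 (adjusted p = 0.00137), and ctsba, of cathepsin B, by 0.64 (adjusted p = 0.0243) and 0.94 (adjusted p = 0.000876). ctsla, of cathepsin L, rose by 0.56 after nostril injury (adjusted p = 0.0478). Leaving out 1 replicate at a time lost none of the ctss2.1 calls at 1 dpi and none of the lgmn and ctsba calls after skull injury. It lost the calls after nostril injury in 4 of 29 fits for lgmn (adjusted p up to 0.0817), 5 for ctsba (up to 0.219) and 22 for ctsla (up to 0.19). The ctss2.1 call at 2 dpi was lost after nostril injury without nostril replicate 1 (0.0607) and after skull injury in 5 of 29 fits (up to 0.199). The ctss2.1 call at 3 dpi was lost without intact replicate 2 (0.0629) or 3 (0.0644) or skull replicate 1 (0.0619).

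Of 12 promoter factor genes tested, those of the RFX, NF-Y, CREB and USF proteins (rfxap, rfxank, nfya, nfybb, nfyc, creb1a, creb1b, usf1 and usf1l) were not called in any comparison with intact with all replicates. Without skull 3 dpi replicate 2, rfxap rose at 3 dpi after skull injury. With all replicates the called genes were those of the myeloid factors. spi1b, a copy of the gene of PU.1, measured 5.07, 5.17, 5.11 and 5.24 in the intact brain, 6.13, 5.84 and 6.26 at 1 dpi after nostril injury and 6.71, 6.35 and 5.85 at 1 dpi after skull injury. After nostril injury it rose at 1 dpi (0.93, SE 0.22, adjusted p = 0.0433) and 2 dpi (0.97, SE 0.22, adjusted p = 0.0433). After skull injury it rose at 1 dpi (1.16, SE 0.22, adjusted p = 0.00832), 2 dpi (1.12, SE 0.22, adjusted p = 0.0193) and 3 dpi (1.55, SE 0.20, adjusted p = 0.000138). spi1a, the other copy, rose at 1, 2 and 3 dpi after skull injury by 0.72, 0.84 and 0.59, and irf8, required for macrophage development in zebrafish, rose at 3 dpi after skull injury by 1.28 (SE 0.31, adjusted p = 0.0138). Without skull 3 dpi replicate 2 the 3 dpi differences were 1.39 for spi1b, 0.50 for spi1a and 0.89 for irf8 (adjusted p = 0.000357, 0.0448 and 0.0267). The spi1b and irf8 calls at 3 dpi held in all 29 fits that left out 1 replicate. With only the compared groups fitted, the irf8 call was lost (adjusted p 0.152) and the spi1b call held. The spi1b call at 1 dpi was lost in 13 of them after nostril injury (adjusted p up to 0.179) and in 2 after skull injury (without skull replicate 1, 0.128, or 2, 0.0615), and that at 2 dpi in 12 and 6 of them (up to 0.305 and 0.15). The spi1a calls at 1, 2 and 3 dpi were lost in 19, 5 and 1 of the 29 fits (up to 0.299, 0.189 and 0.0596).

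Interferon gamma input was represented by 12 matched genes, of which 8 were tested. ifng1, the gene of the cytokine, had group means from 3.22 to 3.54 and was below the limit in every group. irf1b, a copy of the interferon regulatory factor 1 gene, measured 6.51, 6.46, 6.41 and 6.83 in the intact brain. At 1 dpi it was 6.98, 8.11 and 7.2 after nostril and 7.575, 7.98 and 7.18 after skull injury. At 2 dpi after skull injury it was 8.03, 7.51 and 7.53. These values lay above all intact values, and irf1b was not called against intact in these groups. At 3 dpi after skull injury it measured 8.32, 9.95, 7.47 and 7.82. It rose there by 1.84 (SE 0.37, adjusted p = 0.00453), and by 1.32 (adjusted p = 0.0052) without replicate 2. socs1a, a feedback inhibitor of cytokine signalling, measured 4.84, 4.29, 4.42 and 4.89 in the intact brain and 5.48, 6.80, 4.82 and 5.66 in that group. Its groups overlapped, and the rise was 1.08 (SE 0.26, adjusted p = 0.0138), or 0.71 (adjusted p = 0.0203) without replicate 2. jak1, of a receptor kinase, rose by 0.48 at 1 dpi after nostril injury (adjusted p = 0.0498), a call lost in 22 of 29 fits that left out 1 replicate (adjusted p up to 0.264), and the receptor gene ifngr2 was not called in any comparison.

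Of 5 tested genes of costimulation and class II turnover, cd40 (costimulatory receptor of antigen presenting cells) and cd83 (which in mice keeps class II at the surface) rose at 3 dpi after skull injury. There 3.1% of all probe sets rose. The differences were 0.53 (SE 0.14, adjusted p = 0.0274) and 1.13 (SE 0.32, adjusted p = 0.0348). cd83 passed the limit for testing only through that group, with a mean level of 4.34 against 3.21 in the intact brain. The filter thus favoured a rise of cd83 there. Without replicate 2 of that group cd40 no longer passed (0.36, adjusted p = 0.0621), and cd83 was under the limit for testing. Both calls were also lost without intact replicate 2 (0.067 for cd40 and 0.0658 for cd83) or 3 (0.0738 and 0.0706) or skull replicate 1 (0.053 and 0.0572), and that of cd83 without intact replicate 4 (0.0874). mif, the gene of a CD74 ligand, was tested and not called in any comparison with intact, with differences between -0.21 and 0.00.

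Over the 37 tested genes of the list, 6 rose at 1 dpi with nostril injury and 5 with skull injury, where 0.765% and 0.541% of all probe sets rose, and none fell. At 2 dpi the nostril count was 2 (0.457% of all probe sets) and the skull count 3 (0.283%), all higher. At 3 dpi after skull injury 11 rose and 0 fell, where 3.1% of all probe sets rose and 4.83% fell. Among those that rose was cd83, which passed the limit for testing only through this group. Without replicate 2 of that group, 9 of 36 tested rose and 2 fell (marchf8 and sppl2, chosen for naming after the count was seen). The share of all probe sets called without that replicate was not counted. At 3 dpi after nostril injury (0.0861% of all probe sets called) and at 7 dpi after nostril (1.75%) and skull injury (0.708%) none was called. The median difference of the 37 genes from intact lay between 0.09 and 0.19 in the 8 comparisons, and that of all probe sets between -0.06 and 0.01. At 1 dpi the called genes of the list were proteases, myeloid factors and jak1, with no class II chain among them, and at 3 dpi after skull injury they included all 3 tested chains.

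**Figure D5:**
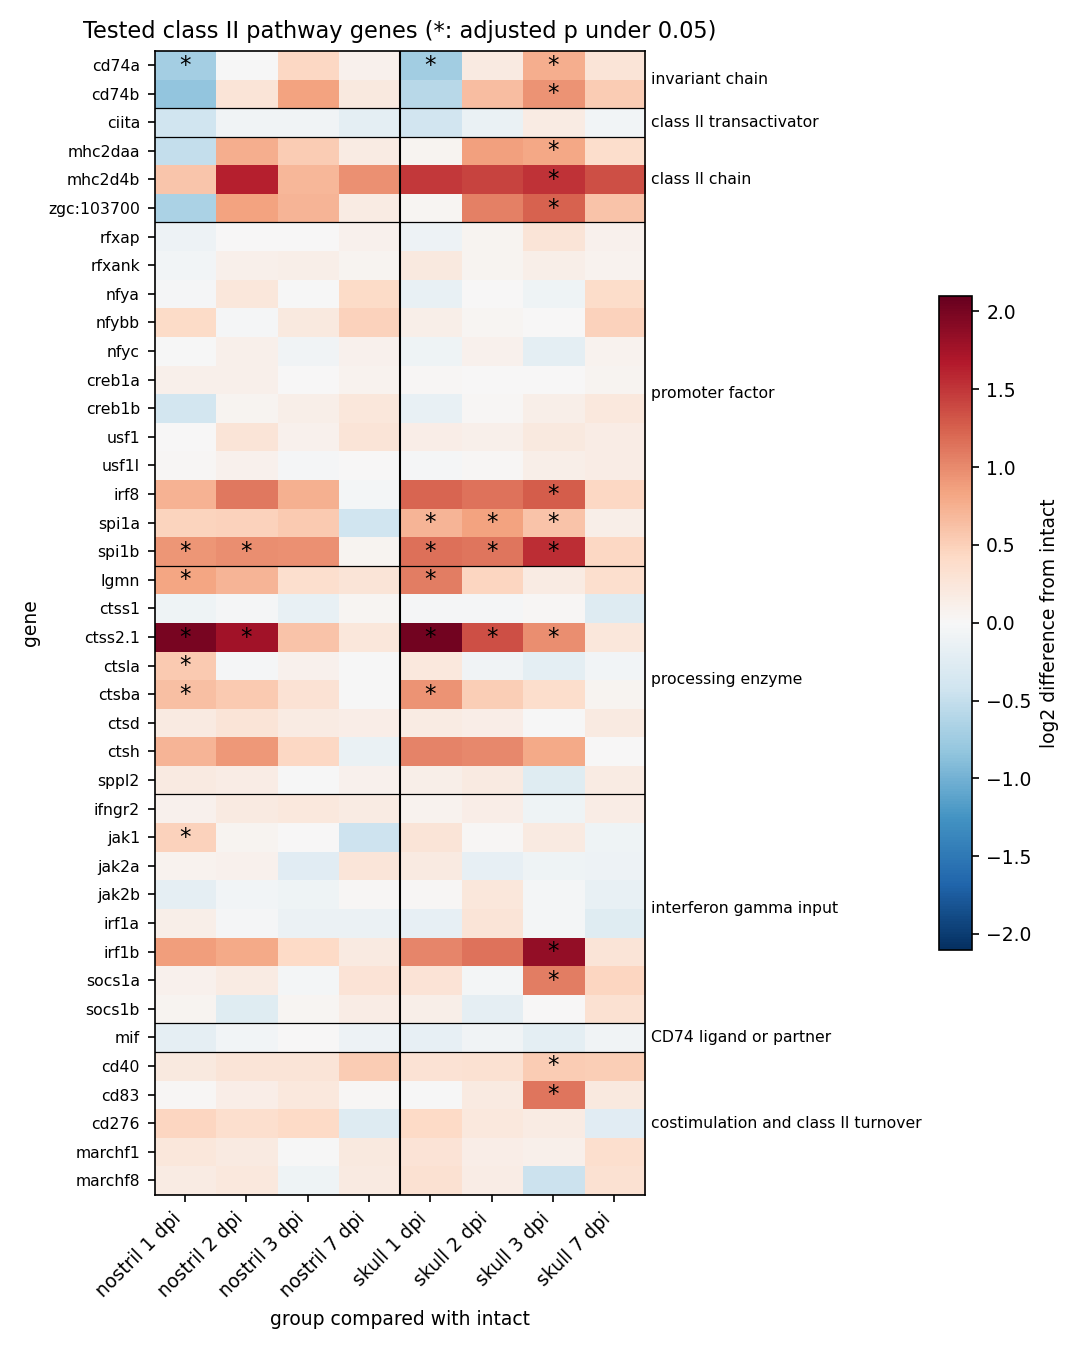
Log2 difference from intact (colour, red higher and blue lower) of the 40 tested genes of the pathway, grouped by role, in the 8 injured groups; a star marks an adjusted p under 0.05. At 1 dpi the stars lie on cd74a (blue), proteases, spi1a, spi1b and jak1, and at 3 dpi after skull injury they lie on cd74a, cd74b and the 3 chains, among others.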

How the data were processed

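Telencephalic RNA was measured on arrays; the authors made the deposited log2 values by RMA in Affymetrix Expression Console 1.3 with sketch-quantile normalization and median polish. Since RMA shares the distribution of intensities among arrays, differences are relative to the whole array. No depth is defined, and the number of arrays limits the precision. Probe sets were named from the array annotation, and 20806 of 75212 carry 1 symbol. For intact replicate 1 the mean of both technical arrays was taken. Contrasts came from limma 3.58.1 under R 4.3.3 (a linear model and empirical Bayes moderation over all probe sets, 20 residual and 3.51 prior degrees of freedom), with Benjamini-Hochberg adjustment over 40670 probe sets. The 20 contrasts were each injury minus intact, skull minus nostril, and later minus earlier times. Replicates were taken as 1 to n of a group without pairing.

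The genes and lists were chosen with earlier results of these data known. Genes of each role were named by the smallest p among those called, at most 4, and similar genes by the highest Pearson correlation. Alternatives changed the samples fitted, technical arrays, normalization, moderation, weights, filter and call rule, and left out each replicate. The other call rule was an unadjusted p under 0.05, a fold above 1.6 and a linear mean above 20 in a compared group. Averaging all probe sets of a gene was not applicable to cd74a, cd74b and ciita, which had 1 each. For laptm5 and blnk, with 2 probe sets, the other probe set was examined after seeing the data. The fit was tested on simulated data, with changes added only to skull injury at 1 dpi. Residuals were shuffled over all replicates there, so the larger variance of skull injury at 3 dpi was not reproduced. Figures were drawn with Python 3.11.15 and matplotlib 3.10.9.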

Additional observations from a re-analysis of the deposited data

Results flagged for a closer look

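No member gene met a criterion for a closer look: in the groups of 4, no replicate of cd74a, cd74b, ciita or the 3 tested chains was an outlier by Dixon's test, and none was called between the injuries. The groups of 3 were not tested for outliers. Of the other pathway genes, 2 differed between the injuries at 3 dpi by the test of the difference itself. For irf1b the skull minus nostril difference was 1.42 (SE 0.40, adjusted p = 0.0496 by limma), with skull values of 8.32, 9.95, 7.47 and 7.82 and nostril values of 7.13, 6.94 and 6.85. Without skull replicate 2 the difference was 0.90 and did not pass (adjusted p = 0.0666), and the call was lost in 23 of 29 fits that left out 1 replicate. socs1a was higher by 1.13 (SE 0.28, adjusted p = 0.0303), with skull values of 5.48, 6.80, 4.82 and 5.66 and nostril values of 4.6, 4.21 and 4.89. Without skull replicate 2 the difference was 0.76 (adjusted p = 0.0252). The socs1a call was lost when any of the 3 nostril replicates was left out.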

How the results depend on the processing

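The direction of each of the 13 calls of cd74a and cd74b was kept in every alternative fit and in all fits that left out 1 replicate. With only the compared groups fitted, all 13 calls were lost (adjusted p 0.0521 to 0.327), so that 0 genes were called in every comparison. This fit has fewer samples behind its spread. The fit over all groups shares 1 spread, although skull injury at 3 dpi had the larger variance. Of the pathway list calls at 3 dpi after skull injury against intact, only zgc:103700 and spi1b held with only the compared groups fitted. Among those lost were irf8 (adjusted p 0.152), irf1b (0.127) and socs1a (0.209). Further quantile normalization, eBayes with trend and a linear mean above 50 lost none of the 13 calls of cd74a and cd74b. The step from 1 to 2 dpi was the least stable: after nostril injury 1 gene was called with either technical array alone and 0 without the filter, and after skull injury 0 with technical array 2 alone, with skull injury at 3 dpi left out or without the filter, and 2 with array weights. The steps from 2 to 3 and from 3 to 7 dpi after skull injury were 0 with array weights, without the filter and by the criteria of the methods, and the latter step was also 0 with centred arrays. By the criteria of the methods 2 genes were called at 1 dpi after nostril injury, 1 at 3 dpi after nostril injury and 2 between 1 and 2 dpi after skull injury. The cause was not tested.

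Replicate numbers did not pair the samples: deviations of same-numbered samples in different groups correlated at -0.144 to 0.206 (median -0.00223). With the replicate number as a block, 0 genes were called between 1 and 2 dpi after nostril and 0 after skull injury, and no other count of the 3 genes changed. When each replicate was left out in turn, the count of genes called ranged from 0 to 2 at 1 dpi after nostril injury, 0 to 1 at 1 dpi after skull injury and 2 to 2 at 3 dpi after skull injury. It ranged from 0 to 2 between 1 and 2 dpi after either injury, 0 to 1 for the later skull steps and 1 to 2 between 1 and 7 dpi after either injury, and was 0 to 0 in all other comparisons.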

Other observations

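Some pathway genes were called between times, and of those given here marchf8 and creb1b were not called against intact with all replicates. marchf8, whose mammalian counterpart encodes a ubiquitin ligase that removes class II and other proteins from the cell surface, fell by 0.61 (SE 0.17, adjusted p = 0.0447 by limma) from 2 to 3 dpi after skull injury. It rose by 0.77 (SE 0.17, adjusted p = 0.00789) from 3 to 7 dpi, where cd74a fell, and without skull 3 dpi replicate 2 these differences were -0.82 and 0.98. The first call was lost in 22 of 29 fits that left out 1 replicate (adjusted p up to 0.16) and the second in none. creb1b, of a CREB protein, rose by 0.63 (SE 0.17, adjusted p = 0.0307) from 1 to 7 dpi after nostril injury, a call lost without any of the 6 replicates compared (adjusted p 0.0647 to 0.102). jak1 fell by 0.92 (SE 0.12, adjusted p = 0.00014) and ctsba by 0.65 (SE 0.15, adjusted p = 0.0121) over the same span, and the ctsba call was lost without nostril 1 dpi replicate 2 (0.0812).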
